A study of Mus musculus with 6 samples.

Results

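Pyramidal cells fill the CA1 and CA3 fields of the hippocampus, and 7 genes that mark these fields were followed in Phf8 knockout (KO) and wild-type (WT) hippocampus. Wfs1, Fibcd1, Pou3f1, Mpped1 and Man1a were taken as markers of CA1, and Bok and Iyd as markers of CA3. All probe sets with a single gene symbol from this set were used, which gave 9 probe sets for the 7 genes, out of 45037 probe sets and 18193 genes on the array. Pou3f1 and Man1a had a pair of probe sets each, the others had 1. All 9 passed the filter on low signal, which kept the 27408 probe sets that exceeded an array's 40th percentile on 3 or more of the 6 arrays.

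Hippocampal RNA from 3 Phf8 KO and 3 WT samples, all aged 10 weeks and labelled C57BL/6, was hybridized to Affymetrix mouse arrays, with 1 array per sample. Phf8 is an X-linked gene for a histone demethylase, and the KO allele lacks exons of its catalytic JmjC domain. The line was derived on another strain background and then backcrossed to C57BL/6 J, and the allele was made by crossing floxed mice with EIIa-Cre mice, in which Cre acts in the early embryo. The KO animals were described in the methods as hemizygous males (Phf8-/Y) and the WT animals as their male littermates. The methods can be read as 1 mouse or as several pooled mice for each array, so the p-values measure the spread between arrays. Values are log2 MAS5 signals, a background-corrected brightness per probe set on which a difference of 1 is a 2-fold change, and levels of different probe sets cannot be set against each other.

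In the hippocampal circuit, input from the entorhinal cortex reaches the granule cells of the dentate gyrus, whose mossy fibers excite CA3 pyramidal cells. CA3 cells in turn send the Schaffer collaterals to CA1, the synapse at which long-term potentiation is most often recorded, and CA1 projects to the subiculum. The fields share most pyramidal genes but each also has transcripts enriched over its neighbors, which serve as its markers in the sections of brain atlases. In RNA from whole tissue, fewer cells of a type and less RNA per cell cannot be told apart, and the arrays do not show which cells a signal came from.

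The targeted gene was low in all KO samples. The bright Phf8 probe set had log2 signals of 8.23, 8.55 and 7.99 in KO and 9.90, 9.66 and 9.73 in WT hippocampus, without overlap. KO differed from WT by -1.51 (limma, adjusted p = 0.124 over the kept probe sets), with a standard error of 0.18, and by -1.37 without KO replicate 3 (adjusted p = 0.00854). Its other probe sets were below the filter. One array, KO replicate 3, stood apart. Across the kept probe sets it correlated with the other arrays at 0.899 to 0.925, against 0.968 to 0.985 among those 5, and for this reason the KO minus WT differences of the markers and of the gene lists are given with and without it.

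Of the 9 marker probe sets, 4 were higher and 5 lower on average in KO, and none passed an adjusted p of 0.05 in limma (0 of 9, with 0 at an unadjusted p under 0.05). Over all 27408 kept probe sets 6 passed, or 0.0219%, all of them lower in KO, and 6.18% had an unadjusted p under 0.05. KO and WT overlapped for all 9, whereas 15.2% of the kept probe sets did not overlap. KO replicate 3 was the lowest of the 6 arrays for 6 marker probe sets and the highest for 2. The median difference was -0.20 for the 5 CA1 genes and -0.07 for the 2 CA3 genes, each gene taken by its brightest probe set, against -0.01 over all kept probe sets. Without KO replicate 3 these medians were 0.05, 0.04 and -0.01.

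**Figure D1:**
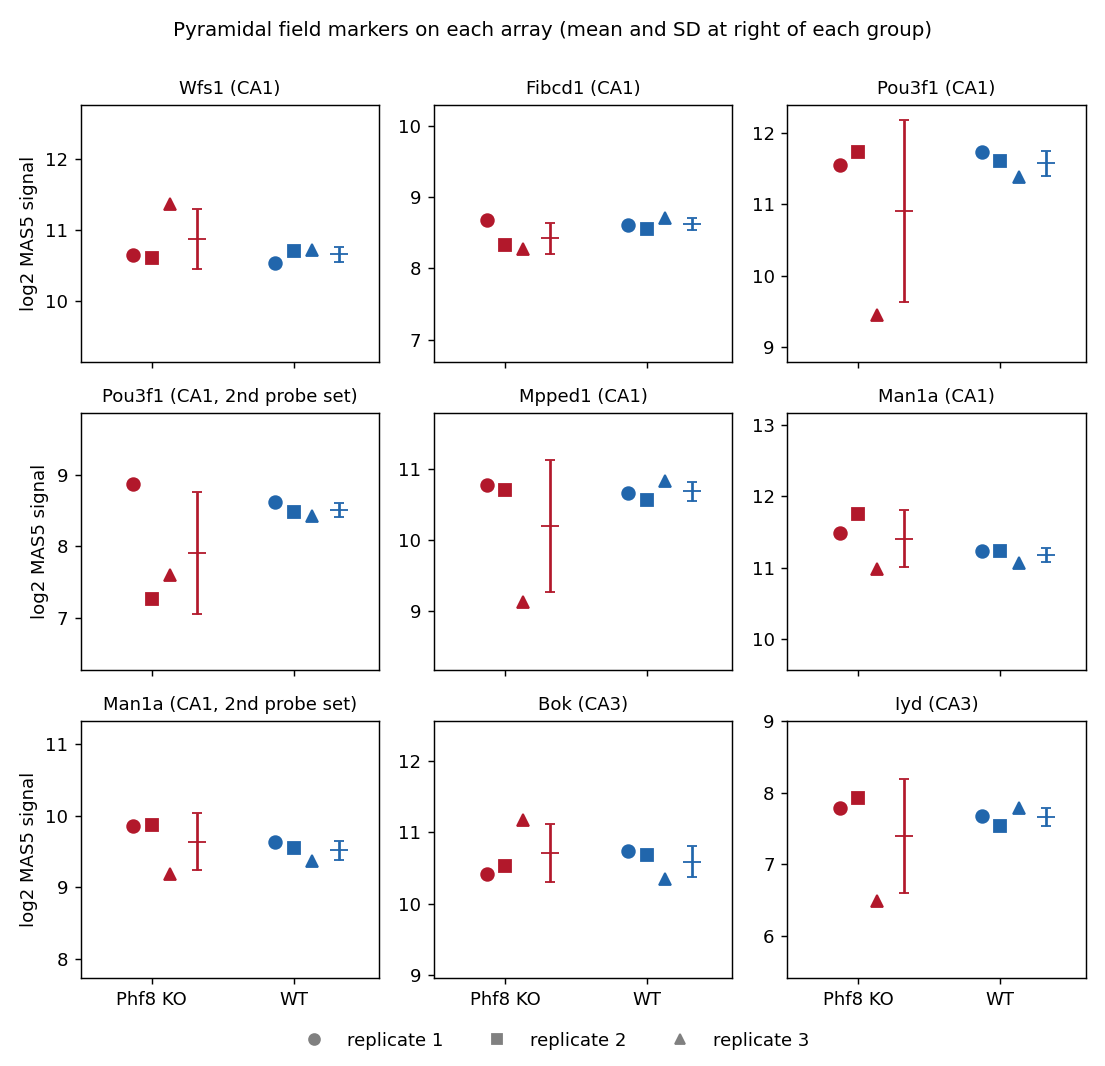
Log2 MAS5 signal (y axis, every panel spans the same range) of the 9 marker probe sets on the 3 Phf8 KO (red) and 3 WT (blue) arrays, where bars give group means with their SD. KO replicate 3 (red triangle) is at 9.44 for Pou3f1 and 9.13 for Mpped1, below every WT array, and at 11.36 for Wfs1, above every WT array.

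Pou3f1 encodes a transcription factor of the POU family, also known for its part in myelination by Schwann cells. Its brighter probe set (1460038_at) had log2 signals of 11.55, 11.73 and 9.44 in KO replicates 1, 2 and 3 and of 11.74, 11.60 and 11.39 in the WT replicates. KO replicates 1 and 2 thus lay within the WT range, and KO replicate 3 was 1.94 below the lowest WT array, at 0.228 of the mean WT signal. The group means were 10.91 ± 1.27 in KO and 11.57 ± 0.18 in WT (SD, n = 3 each), a difference of -0.67 with a standard error of 0.56 (adjusted p = 0.811 from limma). Without KO replicate 3 the difference was 0.07, with a 95% interval of -0.19 to 0.32.

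The dimmer Pou3f1 probe set (1422068_at) gave another order of the arrays. It had 8.87, 7.26 and 7.60 in KO replicates 1, 2 and 3 and 8.61, 8.49 and 8.43 in WT. Here KO replicate 2 was the lowest array and KO replicate 1 the highest, and they differed by 1.61, while on the brighter probe set they differed by 0.17. Both Pou3f1 probe sets were below all WT arrays on KO replicate 3 but only the dimmer one on KO replicate 2, so its difference of -0.60 (adjusted p = 0.792 from limma) was still -0.44 without KO replicate 3 (adjusted p = 0.641). The files do not show which parts of the transcript the probe sets detect, and a KO difference of Pou3f1 in replicate 2 rests on the dimmer one alone.

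Mpped1 encodes a protein with a metallophosphoesterase domain and is strongly expressed in the developing and adult forebrain. Its log2 signals were 10.77, 10.70 and 9.13 in KO and 10.66, 10.56 and 10.82 in WT. KO replicates 1 and 2 fell inside the WT range and KO replicate 3 was 1.42 below the lowest WT array, the same arrangement as on the brighter Pou3f1 probe set. The difference was -0.48 with a standard error of 0.41 (adjusted p = 0.815 from limma), and 0.05 without KO replicate 3, where the 95% interval of -0.19 to 0.29 corresponds to folds of 0.880 to 1.22.

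Wfs1 encodes wolframin, a membrane glycoprotein of the endoplasmic reticulum whose loss causes Wolfram syndrome, and is one of the most used markers of CA1. It had log2 signals of 10.64, 10.61 and 11.36 in KO and of 10.54, 10.71 and 10.72 in WT. The WT arrays spanned 0.18, KO replicates 1 and 2 lay among them, and KO replicate 3 was 0.64 above the highest. Wfs1 was therefore highest on the array on which Mpped1 and the brighter Pou3f1 probe set were lowest. The difference was 0.21 with a standard error of 0.21 (adjusted p = 0.831 from limma), and -0.03 without KO replicate 3 (95% interval -0.25 to 0.19, folds of 0.842 to 1.14).

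Fibcd1 encodes a transmembrane receptor that binds acetylated groups such as those of chitin. Its log2 signals were 8.67, 8.33 and 8.27 in KO and 8.61, 8.55 and 8.71 in WT. KO replicates 2 and 3 lay below all WT arrays, KO replicate 1 between them. KO differed from WT by -0.20, with a standard error of 0.16 (adjusted p = 0.81 from limma), and by -0.12 without KO replicate 3. Fibcd1 was the CA1 gene with the smallest KO spread, with an SD of 0.22 in KO and 0.08 in WT (n = 3 each).

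Man1a encodes a mannosidase of the Golgi that trims N-linked glycans, and its expression is not limited to neurons. Its brighter probe set (1417111_at) had 11.49, 11.75 and 10.98 in KO and 11.23, 11.23 and 11.07 in WT, and the dimmer one (1417110_at) 9.86, 9.87 and 9.18 in KO and 9.63, 9.54 and 9.37 in WT. On both probe sets KO replicates 1 and 2 were above every WT array and KO replicate 3 was below every WT array. With all arrays the differences were 0.23 (adjusted p = 0.814 from limma) and 0.12 (adjusted p = 0.905). Without KO replicate 3 they were 0.45 (standard error 0.10) and 0.35 (standard error 0.12), with unadjusted p = 0.00209 and 0.0156 in limma, and neither passed after adjustment (adjusted p = 0.178 and adjusted p = 0.293). These were the 2 of 9 marker probe sets with an unadjusted p under 0.05 in that fit, in which 12.6% of the kept probe sets had one and 64 of them, or 0.234%, passed after adjustment.

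Of the CA3 genes, Bok encodes a member of the BCL2 family that promotes cell death. Its log2 signals were 10.42, 10.53 and 11.17 in KO and 10.74, 10.68 and 10.34 in WT. KO replicates 1 and 2 lay inside the WT range of 0.40, which was the widest of the 9 marker probe sets, and KO replicate 3 was 0.43 above the highest WT array. The difference was 0.12 with a standard error of 0.22 (adjusted p = 0.91 from limma), and -0.11 without KO replicate 3 (95% interval -0.41 to 0.19).

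Iyd encodes iodotyrosine deiodinase, an enzyme best known from the thyroid, where it recovers iodide. It had log2 signals of 7.78, 7.92 and 6.48 in KO and 7.68, 7.53 and 7.78 in WT. KO replicate 3 was 1.05 below the lowest WT array and only a little above the filter level of 6.04 of that array. The difference was -0.27 with a standard error of 0.38 (adjusted p = 0.883 from limma), and 0.19 without KO replicate 3 (95% interval -0.19 to 0.56). The CA3 genes thus deviated in opposite directions on KO replicate 3, as Wfs1 and Mpped1 did among the CA1 genes.

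**Figure D2:**
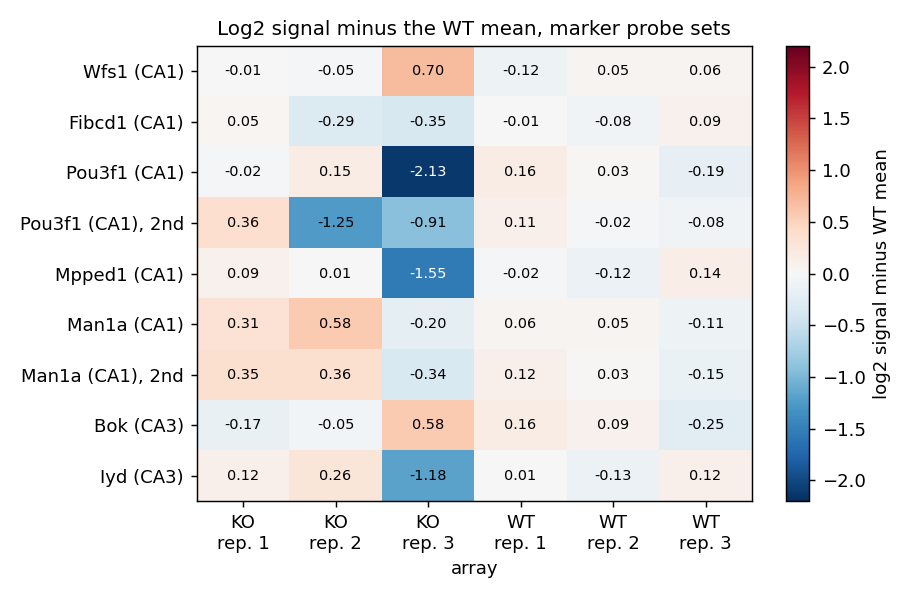
Log2 signal minus the mean of the 3 WT arrays (color and printed value) for the 9 marker probe sets (rows) on each array (columns). In the KO replicate 3 column the values run from -2.13 for Pou3f1 to 0.70 for Wfs1, and on KO replicates 1 and 2 the largest deviation apart from the dimmer Pou3f1 probe set is 0.58 for Man1a.

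Array by array, 3, 5 and 9 of the 9 marker probe sets lay outside the range of the WT arrays in KO replicates 1, 2 and 3. Of the kept probe sets, 58.9%, 68.7% and 81.4% did so on the same arrays, so lying outside the narrow WT range was common. On KO replicate 3, 7 marker probe sets were below and 2 above the WT range. On that array 3 of 9 were at least 1 below the lowest WT array (Pou3f1, Mpped1 and Iyd), against 4.21% of the kept probe sets, and 1 of 9, Wfs1, was at least 0.5 above the highest, against 14.9%. The low step of 1 and the high step of 0.5 differ, so the share below and the share above cannot be set against each other. The markers were chosen with earlier results of these arrays known, including that KO replicate 3 stood apart. Neither the share below nor the share above is therefore independent of that knowledge.

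**Figure D3:**
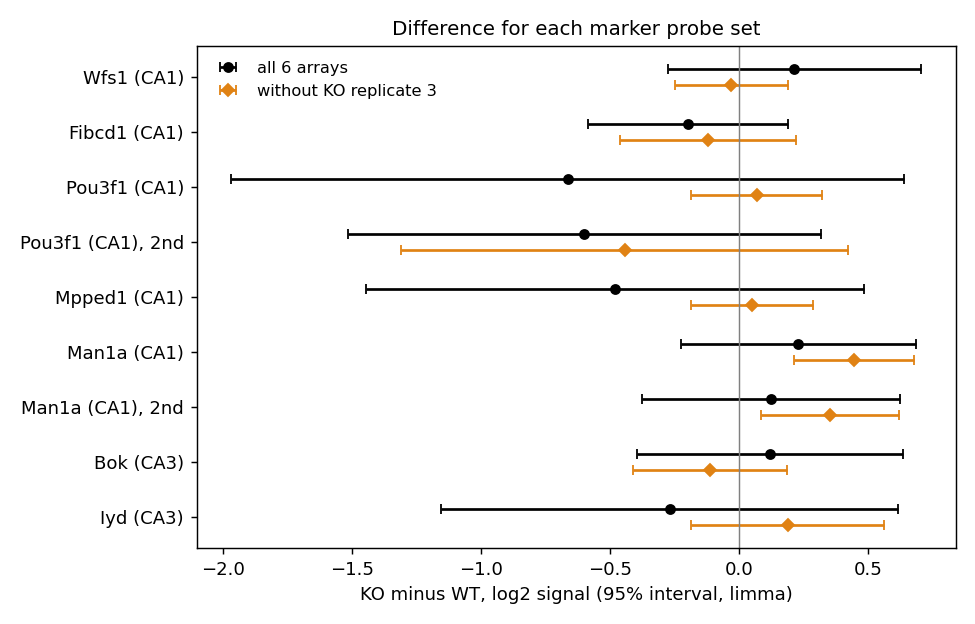
KO minus WT difference of log2 signal (x axis) with its 95% interval from limma for each marker probe set, with all 6 arrays (black circles) and without KO replicate 3 (orange diamonds). With all arrays every interval includes 0, and without KO replicate 3 only the intervals of the Man1a probe sets (0.21 to 0.68 and 0.09 to 0.62) do not, before adjustment for the number of probe sets tested.

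Leaving out KO replicate 3 turned the sign of the difference for 5 of the 7 genes (Wfs1, Pou3f1, Mpped1, Bok and Iyd) and left it for Fibcd1 and Man1a. It also narrowed the intervals, which for the brighter Pou3f1 probe set ran between -1.97 and 0.64 with all arrays. With all arrays a 2-fold fall in KO lay within the interval for Pou3f1 (folds of 0.256 to 1.56 on the brighter and 0.350 to 1.24 on the dimmer probe set), Mpped1 (0.367 to 1.40) and Iyd (0.449 to 1.53). It lay outside the interval for Wfs1 (0.826 to 1.63), Fibcd1 (0.667 to 1.14), both Man1a probe sets and Bok (0.761 to 1.55).

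To show what lies in front of the genes that deviated most on KO replicate 3, the 250 bases before the annotated start are printed for the pair that was lowest there among genes with a promoter entry (Mpped1 and Iyd) and for the pair that was highest (Wfs1 and Bok). The sequences are from RefSeq (GRCm38.p6), 5′ to 3′ on the strand of the gene, and 6 of the 7 genes had entries, 7 in all since Mpped1 has 2 annotated starts, of which the upstream one is shown. Capitals mark matches on either strand to 3 motifs, the GC box GGGCGG, the TATA box TATAAA and the E-box CAGATG, a form bound by NeuroD factors.
Mpped1, chr15:83779773-83780022, plus strand: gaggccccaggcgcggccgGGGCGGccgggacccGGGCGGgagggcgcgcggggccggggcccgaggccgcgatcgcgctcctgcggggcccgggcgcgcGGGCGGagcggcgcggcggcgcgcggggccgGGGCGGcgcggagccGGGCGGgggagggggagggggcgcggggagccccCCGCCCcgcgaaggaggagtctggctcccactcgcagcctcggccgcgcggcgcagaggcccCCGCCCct
Iyd, chr10:3540024-3540273, plus strand: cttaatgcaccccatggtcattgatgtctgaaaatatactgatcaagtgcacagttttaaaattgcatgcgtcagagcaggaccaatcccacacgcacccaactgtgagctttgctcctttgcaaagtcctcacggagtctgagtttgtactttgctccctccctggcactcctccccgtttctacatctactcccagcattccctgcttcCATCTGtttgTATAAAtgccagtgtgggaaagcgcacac
Wfs1, chr5:36988983-36989232, minus strand: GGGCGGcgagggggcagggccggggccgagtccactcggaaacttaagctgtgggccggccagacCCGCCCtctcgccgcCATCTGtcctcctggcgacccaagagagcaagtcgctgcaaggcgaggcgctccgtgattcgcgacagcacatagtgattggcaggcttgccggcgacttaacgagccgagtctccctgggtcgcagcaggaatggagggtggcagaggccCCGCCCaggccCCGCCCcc
Bok, chr1:93685325-93685574, plus strand: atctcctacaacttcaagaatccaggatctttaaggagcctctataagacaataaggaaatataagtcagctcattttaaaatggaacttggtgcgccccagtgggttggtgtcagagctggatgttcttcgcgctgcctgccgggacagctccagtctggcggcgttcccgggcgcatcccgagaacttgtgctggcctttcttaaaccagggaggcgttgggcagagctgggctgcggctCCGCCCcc
Mpped1 held 7 GC boxes, Wfs1 4 GC boxes and 1 E-box, Bok 1 GC box, and Iyd no GC box but an E-box that begins 39 bases and a TATA box that begins 29 bases before the start. A GC box was in 5 of the 7 marker promoters and in 32.7% of all 32851 promoters of the same length, the E-box in 2 and in 14.4%, and the TATA box in 1 and in 12.4%. The octamer ATGCAAAT, which POU factors such as Pou3f1 bind, was in 0 of 7 and in 1.6%. No motif separated the pair that was low on KO replicate 3 from the pair that was high, and a match is not a binding site.

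Other genes of the hippocampal fields were compared with the markers on the same scale. Of 5 further CA1 genes, all 5 were lower on average in KO and none passed in limma (median -0.61). On KO replicate 3, 81.4% of the kept probe sets lay outside the WT range in either direction. All 5 further CA1 genes were below every WT array there. Their median deviation was -0.20 and -0.02 on KO replicates 1 and 2 and -1.75 on KO replicate 3. Among them, Lefty1, a Nodal antagonist, deviated by -1.58 there and Gpr161, a receptor of the primary cilium, by -1.75. Pou3f1 and Mpped1 were thus low on that array as these genes were, while Wfs1 was high there and Man1a deviated by only -0.20. Without KO replicate 3 the median difference of these 5 genes was -0.16, with 3 lower and 2 higher.

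Of the 9 further CA3 genes, 4 were higher and 5 lower on average in KO with all arrays (median -0.04), and 7 were higher and 2 lower without KO replicate 3 (median 0.14), and none passed in either fit. On KO replicate 3, 4 of them were below and 3 above every WT array. Outside the WT range on that array were 81.4% of the kept probe sets. Socs2, a suppressor of cytokine signaling, differed by 0.32 (0.48 without KO replicate 3), the adhesion gene Nectin3 by -0.51 (-0.09) and the RNA-binding protein gene Elavl2 by 0.23 (0.09). The deviation of Iyd on KO replicate 3 lay within the range of these 9 genes, which ran between -1.69 and 0.51 there, and that of Bok, at 0.58, lay above it. The low end was Prss35, whose signal of 4.88 was below the filter level of 6.04 of that array. Nectin3 was next at -1.35, also below Iyd at -1.18. Of 10 pyramidal genes that the fields share, all 10 were lower on average in KO and none passed (median -0.44, or -0.19 without KO replicate 3), and 9 were below every WT array on KO replicate 3, with the vesicular glutamate transporter gene Slc17a7 at -1.88. The calcium sensor gene Hpca differed by -0.35 (-0.29 without KO replicate 3) and Camk2a, a kinase gene of excitatory synapses, by -0.29 (-0.20). For both all KO arrays were below the WT arrays, as for 4 of the 10 shared genes in all, against 15.2% of the kept probe sets without overlap. Of the 6 CA2 genes, 4 were higher and 2 lower on average in KO (median 0.53). Without KO replicate 3 all 6 were higher (median 0.11). On KO replicate 3, 4 of them were above and 2 below every WT array, where 81.4% of the kept probe sets lay outside the WT range. Of these 6, 2 were above every WT array on all KO arrays, against 15.2% of the kept probe sets without overlap in either direction. Ptpn5, a gene of a neuronal tyrosine phosphatase, deviated by 0.47, 0.84 and 1.09 in KO replicates 1, 2 and 3 and differed by 0.80 (0.66 without KO replicate 3, adjusted p = 0.133 from limma), and Cacng5, a gene of a calcium channel and AMPA receptor auxiliary subunit, deviated by 0.56, 0.48 and 2.67. The 11 dentate granule cell genes had a median of -0.35 (-0.26 without KO replicate 3), with 10 of 11 lower and Lct at -0.76 (-0.66). None of these passed in limma either.

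**Figure D4:**
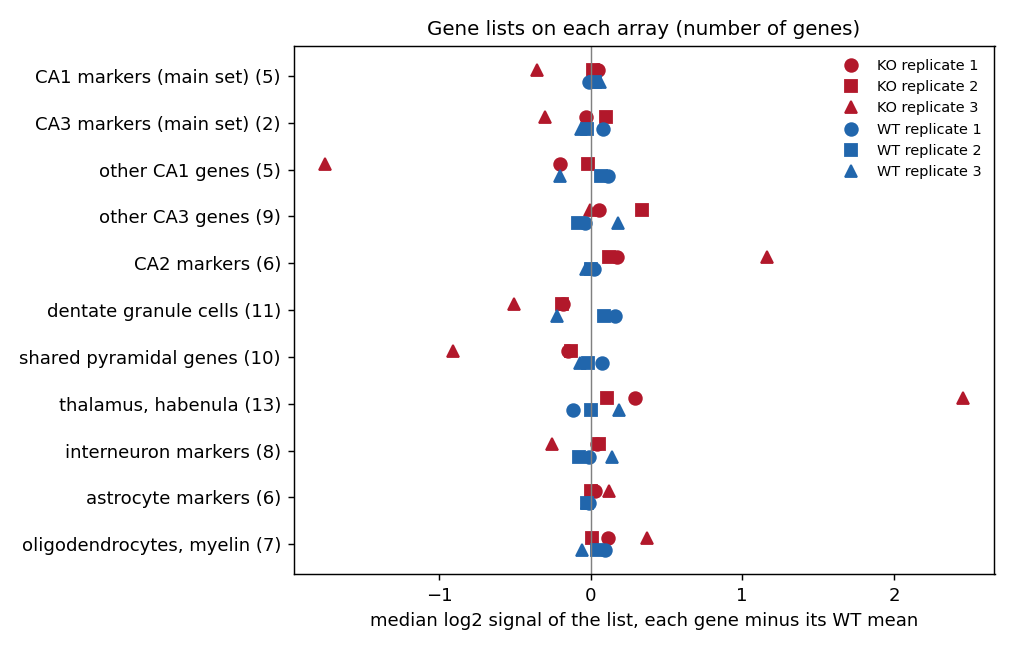
Median over each gene list (y axis, number of genes in parentheses) of the log2 signal minus the WT mean of each gene (x axis) on the 3 KO (red) and 3 WT (blue) arrays. The choroid plexus and blood cell lists are not drawn. On KO replicate 3 (red triangle) the CA1 markers lie at -0.35, the further CA1 genes at -1.75 and the thalamus and habenula genes at 2.45.

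Genes of the thalamus and habenula, which lie next to the hippocampus, were high on KO replicate 3. Of 15 listed, 13 were kept (Gbx2 and Tnnt1 were not), and none was at 0 on any array. On KO replicate 3, 12 of the 13 were above every WT array. Of the kept probe sets, 81.4% lay outside the WT range there, in either direction. The summed linear signal of the 13 genes was 8986, 8577 and 42149 in KO replicates 1, 2 and 3 and 6681 to 7634 in WT. For the 5 CA1 markers the sum was 9640, 10390 and 6210 in KO and 8738 to 9319 in WT. Bright probe sets weigh most in such a sum, so each sum compares arrays only and cannot be set against the other. The median difference of the 13 genes was 0.97 with all arrays and 0.15 without KO replicate 3, and none passed in limma in either fit. Some were high on every KO array. Zic1, a zinc finger transcription factor gene, deviated by 1.19, 0.78 and 3.68 in KO replicates 1, 2 and 3, the vesicular glutamate transporter gene Slc17a6 by 0.38, 0.60 and 2.73, and Tcf7l2, a transcription factor gene of thalamic neurons, by 0.51, 0.31 and 3.37, all above every WT array. Without KO replicate 3 the Zic1 difference was 0.98 (adjusted p = 0.154 from limma). KO and WT did not overlap for 4 of the 13 genes, against 15.2% of the kept probe sets. Plekhg1, picked after its values were seen, was the other gene of this list above every WT array on all KO arrays. The part of these genes' tissue in the deviations of Pou3f1, Mpped1, Iyd, Wfs1 and Bok was not tested. On KO replicates 1 and 2, the thalamus and habenula median was 0.29 and 0.11. Wfs1, Mpped1, Bok and the brighter Pou3f1 probe set lay within the WT range on both. Iyd lay above that range on KO replicate 2, with a deviation of 0.26. The dimmer Pou3f1 probe set lay outside it on both, with deviations of 0.36 and -1.25.

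The patterns most like the markers were sought over the 6 arrays among 12811 genes outside the lists, by the root mean square distance to the mean profile. The mean CA1 profile was 0.08, 0.08 and -0.71 from the WT mean in KO replicates 1, 2 and 3. The nearest genes were Atp8a1 (distance 0.03), Tob1, Kdm1b, Zbtb39 and Fastkd3 (0.04 each), which lay at -0.64 to -0.75 on KO replicate 3. The CA1 markers themselves were 0.22 (Fibcd1) to 0.59 (Pou3f1) from their own mean, so the mean profile describes no single marker well. The nearest genes were picked out of 12811 for a small distance, so that they lay closer than the markers is no result. For CA3, with a mean profile of -0.03, 0.10 and -0.30, the nearest were Mtrex, Hspa9, Pnisr, Wdr19 and Olfm4, at distances of 0.01 to 0.03. Bok and Iyd were each 0.38 away, equal because the mean of 2 genes lies midway between them.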

How the data were processed

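The authors deposited log2 MAS5 signals of 45037 probe sets for 6 arrays. MAS5 and affy stand in the submitters' processing notes, with no version. The methods name GeneSpring, a filter on Absent calls and a 1.5-fold change. The trimmed mean signal (2% at each end) was 497.5 to 498.2 on the linear scale on every array, so the authors' scaling was left as it was. The number of arrays limits the precision.

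A percentile filter stood in for the Absent calls, which were not used here. Gene symbols came from GEO's platform annotation, which gave 1 symbol for 34945 probe sets, several for 932 and none for 9160, and the members' symbols were unchanged in RefSeq. KO minus WT was fitted on all kept probe sets with limma 3.58.1 in R 4.3.3 (lmFit, eBayes with trend, Benjamini-Hochberg). The fit was tested on simulated data, in which 37 of 100 planted log2 changes of 1 passed and 70 of 100 of 2. A gene that did not pass may therefore still differ. The members, lists and tests were chosen with earlier results of these data known. A gene is represented by its brightest kept probe set. Named beside the members are Phf8, per list up to 4 of the genes with the smallest p, and the 5 genes nearest to each mean profile. Prss35 and Plekhg1 were named for their values and not by this rule, and Gbx2 and Tnnt1 because they were not kept. Lists covered CA1, CA2, CA3, dentate, shared pyramidal, thalamus and habenula, interneuron, astrocyte, oligodendrocyte, choroid plexus and blood cell genes. Figures were drawn with matplotlib 3.10.9.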

Additional observations from a re-analysis of the deposited data

How the results depend on the processing

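No marker probe set passed in limma under any of the 16 alternatives that counted them, with at most 2 at an unadjusted p under 0.05. The sign of a gene's difference turned in 10 cases, none past the threshold. Without KO replicate 3 it was -0.030 for Wfs1, 0.068 for Pou3f1, 0.051 for Mpped1, -0.11 for Bok and 0.19 for Iyd, and without WT replicate 3 it was -0.0029 for Bok. Leaving out 1 array at a time gave -0.030 to 0.34 for Wfs1, -1.07 to 0.068 for Pou3f1, -0.77 to 0.051 for Mpped1, -0.11 to 0.27 for Bok and -0.53 to 0.19 for Iyd. With array weights estimated gene by gene, chosen after the default estimate did not converge, it was 0.0028 for Fibcd1, 0.029 for Mpped1, -0.16 for Bok and 0.089 for Iyd, and the CA1 median was 0.028. That setting gives KO replicate 3 a weight of 0.13 and KO replicate 1 a weight of 3.03. Leaving out 1 array at a time put the CA1 median between -0.32 and 0.051, with 0.051 without KO replicate 3. The lowest adjusted p of any marker gene was 0.122, for Man1a with these weights, whose range over alternatives was 0.122 to 0.999. Over all probe sets the 6 calls became 1 without the filter, 0 with no trend (1747 at an unadjusted p under 0.05), 307 with array weights and 2 with the replicate block, and 0 to 64 when single arrays were left out, with 64 without KO replicate 3, 2 without KO replicate 1 or 2, and 0 without any one WT array. The replicate number does not pair the arrays by the labels, deviations of same-numbered arrays correlated at -0.02, 0.07 and 0.10, and the block changed no marker's call. With 3 arrays a group, 1 array decides the sign of most of these differences.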

Other observations

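Genes of other cell types give the setting of the marker values. The 8 interneuron genes had a median KO minus WT difference of 0.01 on the log2 scale (0.05 without KO replicate 3), with the vesicular GABA transporter gene Slc32a1 at 0.78 (0.20 without KO replicate 3) and Pvalb at -0.39 (-0.11). The 6 astrocyte genes had a median of 0.02 (0.04 without KO replicate 3), with 3 higher and 3 lower in either case. The water channel gene Aqp4 differed by 0.33 (0.49 without KO replicate 3) and Gjb6 by -0.16 (-0.37). The 7 genes of oligodendrocytes and myelin had a median of 0.09 (0.16 without KO replicate 3), with Mog at 0.87 (0.74) and all 3 KO arrays above the WT arrays, and Mbp at -0.20 (-0.23) and all 3 KO arrays below them. Over all kept probe sets, 15.2% had no overlap of KO and WT. The 6 choroid plexus genes had a median of -0.21, or 0.82 without KO replicate 3, and their median deviation was 1.37, 0.28 and -1.20 in KO replicates 1, 2 and 3 and 0.06, 0.89 and -0.97 in the WT replicates. Ttr, the transthyretin gene, differed by -0.40 (-0.18 without KO replicate 3). None of these passed in limma with or without KO replicate 3. Of the 4 blood cell genes, Hbb-b2, a beta globin gene, passed (-3.53, adjusted p = 0.0312 from limma), against 0.0219% of the kept probe sets. Without KO replicate 3 it differed by -3.23 and Alas2 and Slc4a1 passed too, 3 of 4 in all, against 0.234%. The remaining gene, Hba-a2, differed by -0.38 (-0.37 without KO replicate 3), with overlap of KO and WT, and did not pass in either fit. Hbb-b2 and Slc4a1 lay below the filter level on every KO array, and Alas2 on KO replicates 2 and 3. Hbb-b2 and Slc4a1 were thus kept through the WT arrays alone, and the sizes of these differences rest on KO values near the floor.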
